A study of Mus musculus with 31 samples.

Results

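The measurement described here is the difference between genotypes in polysome loading at embryonic day 13 (E13) in mouse neocortex. For each gene, the polysome minus monosome difference in libraries labelled HuR cKO was compared with the same difference in libraries labelled WT, on the log2(FPKM + 1) scale. All columns of the 4 groups concerned were used, 10 of the 31 libraries of the series: 2 WT monosome, 2 WT polysome, 3 HuR cKO monosome and 3 HuR cKO polysome libraries. Both genotypes were sampled as dissected neocortex at E13 and at birth (P0), and polyadenylated RNA was taken from total lysate or from pooled gradient fractions. The labels name neither the Cre driver nor the deleted part of the gene, and do not say how many embryos or litters went into a library. The p-values below therefore measure the spread between libraries, which may be technical. In bulk tissue, a lower level can come from fewer cells of a type or from less RNA per cell, which cannot be told apart here.

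HuR, the product of Elavl1, is the broadly expressed member of a family of RNA-binding proteins whose other members, Elavl2, Elavl3 and Elavl4, are mainly neuronal. It binds U-rich and AU-rich stretches, mostly in 3′ UTRs and introns, and is known for effects on mRNA stability, splicing and translation, including on its own mRNA. In polysome profiling, a lysate is spun through a sucrose gradient so that mRNAs sediment by the number of ribosomes they carry. Here cycloheximide was present during lysis, gradients were run in either of 2 tube sizes that the labels do not assign to libraries, and 14 fractions were collected. The pool called monosome holds fractions 4 to 7, a region that by the labels also includes the ribosomal subunits, and the pool called polysome holds fractions 9 to 12. A positive polysome minus monosome difference thus means that an mRNA was more abundant in the heavy pool.

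The sequences below show the densest AU-rich sites of the mRNA that led the comparison. The Elavl1 gene lies on the minus strand of chromosome 8 (chr8:4285382-4325413, GRCm38, GENCODE M21), and the transcript used here has 6 exons, a coding sequence of 978 bases and a 3′ UTR of 4218 bases. That 3′ UTR holds 17 copies of ATTTA, counted on the mRNA strand with overlapping copies included, and 1.29% of the genes tested that have annotated lengths hold at least as many. The 2 windows are 30 bases each and adjoin each other near the distal end of the 3′ UTR, at bases 3793 to 3822 (chr8:4285778-4285807) and 3823 to 3852 (chr8:4285748-4285777), and capitals mark each ATTTA.
Elavl1 3′ UTR, bases 3793 to 3822: attATTTATTTATTTATTTAtttttATTTA
Elavl1 3′ UTR, bases 3823 to 3852: tttgtttgtttATTTATTTATTTAttactt
The first window holds 5 copies and the second 3. A match to these letters is a description and not evidence of binding.

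The values of the targeted gene come first. In WT, Elavl1 stood at 42.4 and 13.5 FPKM in the monosome libraries and at 60.6 and 42.4 FPKM in the polysome libraries. HuR cKO libraries gave 83.9, 80.0 and 82.0 FPKM in monosome RNA and 28.3, 29.9 and 30 FPKM in polysome RNA. The polysome libraries were thus at or above the monosome libraries in WT, while in the libraries labelled HuR cKO every polysome library was below every monosome library. Total RNA gave 28.5 and 39.5 FPKM in WT and 55.4 and 42.5 FPKM in the libraries labelled HuR cKO. These values are set side by side only, since the 2 tables were scaled separately. As listed, whole-gene FPKM was not lower under the knockout label in total or monosome RNA. In polysome RNA each HuR cKO library was listed below each WT library. With the deleted part not named, these levels do not check that label. The genotypes are for this reason given below as labelled.

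Polysome minus monosome, Elavl1 differed by 1.05 on the log2 scale in WT (SE 0.42) and by -1.45 in the libraries labelled HuR cKO (SE 0.35). By limma, the second difference passed the test (adjusted p = 0.00428) and the first did not (adjusted p = 0.0612). The genotype difference was -2.50 (SE 0.55, 95% interval -3.66 to -1.33). It ranked first by p among the 11696 genes tested, but did not pass the test (limma, adjusted p = 0.991). Of 21 alternative settings, 10 also placed Elavl1 first, and the lowest place was 17. Leaving out the lower WT monosome library gave -1.70, and leaving out the higher one gave -3.29 with an adjusted p of 0.0355. A fit of all 12 groups of the series gave the same estimate with an adjusted p of 0.0258.

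**Figure D1:**
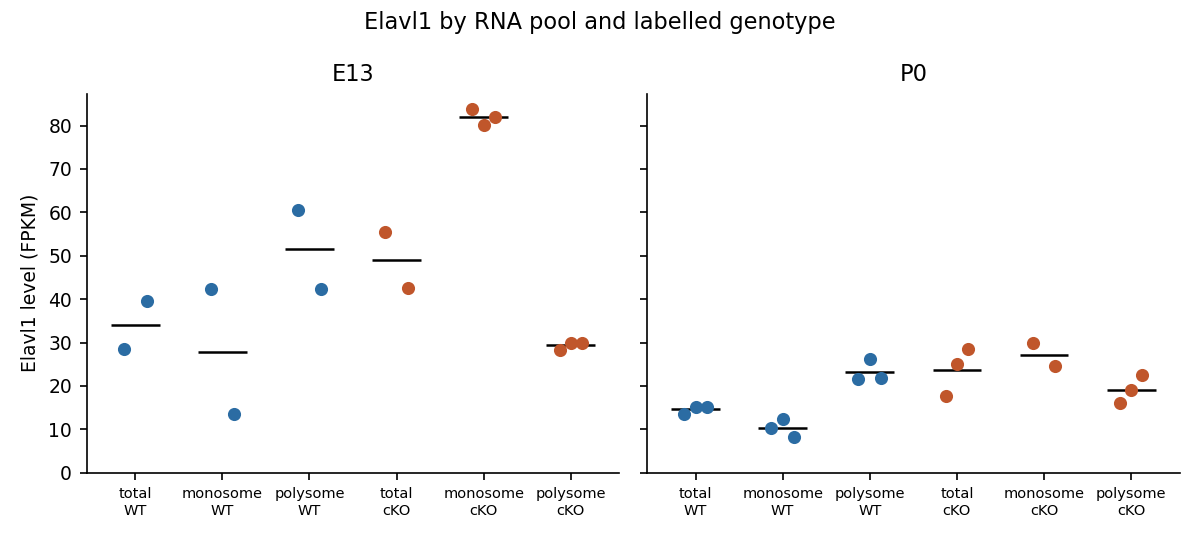
Elavl1 level in FPKM in each library at E13 and at P0, by RNA pool and labelled genotype, with 1 point per library and a bar at the group mean. At E13 the 3 HuR cKO monosome points sit at 80.0 to 83.9 FPKM and the 3 polysome points at 28.3 to 30 FPKM, while the WT polysome points are at 42.4 and 60.6 FPKM.

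The same contrast at birth uses 11 other libraries. At P0, Elavl1 was at 10.3, 12.3 and 8.28 FPKM in WT monosome RNA and at 21.5, 26.2 and 21.8 FPKM in WT polysome RNA. In the P0 libraries labelled HuR cKO it was at 29.9 and 24.5 FPKM in monosome RNA and at 16.0, 19 and 22.6 FPKM in polysome RNA. The 2 pools did not overlap in either genotype, with opposite order. The genotype difference at P0 was -1.60 (SE 0.26), again ranked first by p among all genes tested there, with an adjusted p of 0.374. The difference between the 2 ages was -0.90 (SE 0.60, limma adjusted p = 0.984), so the E13 value was not shown to differ from that at birth. Against total RNA at E13, the genotype difference for Elavl1 was -1.29 (SE 0.42) in the polysome pool and 1.21 (SE 0.58) in the monosome pool, and neither passed the test. These comparisons share their polysome or monosome libraries with the main one.

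Across all genes, the test called none. Of 11696 genes with a mean of at least 1 FPKM, limma called 0 (0.0%) at an adjusted p under 0.05, and 361 had an unadjusted p under 0.05. The smallest adjusted p was 0.991, so none of the genes named below passed. Of the 361, 22 genes had a higher polysome against monosome difference in the libraries labelled HuR cKO (0.188% of all tested) and 339 a lower one (2.9%). That split depends on scaling: the median over all genes was -0.18, and it became 0.03 when each library was rescaled by its median ratio to its own table, a shift of 0.22 on the log2 scale. After rescaling, 100 genes were higher (0.861%) and 86 lower (0.741%) at an unadjusted p under 0.05, still with 0 called. Gene lists are therefore described below relative to the median of all genes, and most counts of members at an unadjusted p under 0.05 are given also after rescaling. Such counts are to be read against these shares of all genes. The median standard error was 0.49, which gives a 95% interval of 1.05 on the log2 scale to either side. Differences of about 2-fold in single genes were thus within the error of these 10 libraries.

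The 2 genotypes ordered mRNAs between the pools alike. In WT, 4648 of the 11696 genes (39.7%) differed between polysome and monosome RNA, and in the libraries labelled HuR cKO 4389 (37.5%). Of all genes tested, 23.8% were called higher and 15.9% lower in polysome RNA in WT, and 18.4% and 19.1% in the libraries labelled HuR cKO. Both called 3411 genes, which is 73.4% of the WT calls and 77.7% of the HuR cKO calls, and 3410 of them had the same direction. The exception was Dynlrb2, a dynein light chain gene of the roadblock type. Dynlrb2 stood at 3.29 and 1.79 FPKM in WT monosome RNA and at 8.54 and 9.45 FPKM in WT polysome RNA. HuR cKO libraries gave 13.7, 16.1 and 5.24 FPKM in monosome RNA and 1.17, 8.52 and 3.61 FPKM in polysome RNA. Its genotype difference was -2.88 (SE 0.73), and the HuR cKO pools overlapped. Across genes, the WT and HuR cKO differences correlated with Pearson's r = 0.909 and Spearman's rho = 0.891 (n = 11696 genes, which are not independent).

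**Figure D2:**
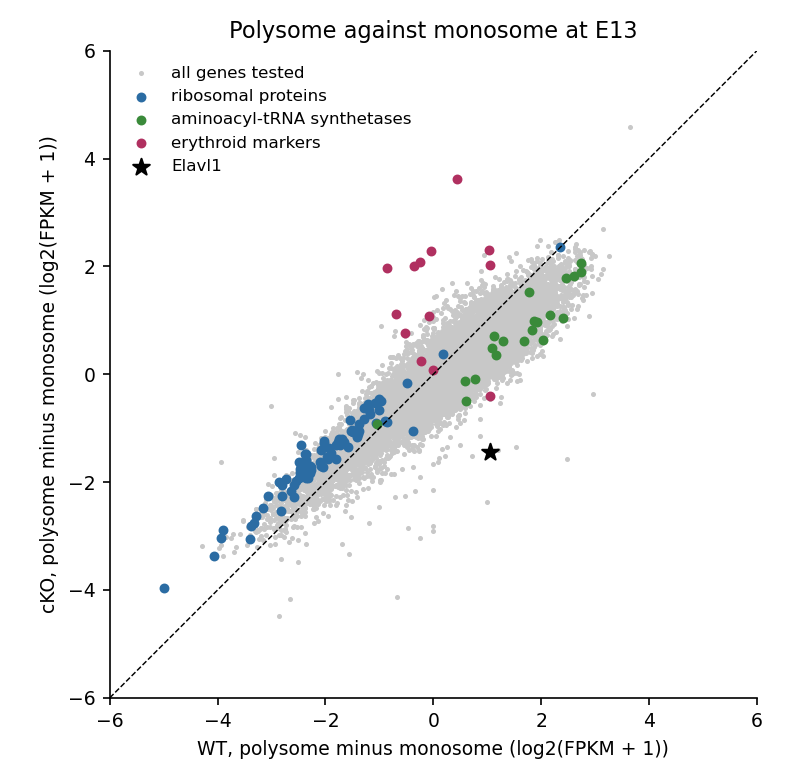
Polysome minus monosome difference at E13 for each of 11696 genes (log2(FPKM + 1) scale), WT on the horizontal and HuR cKO on the vertical axis, with the dashed line at equality. Ribosomal protein genes lie mostly above the line at negative values, aminoacyl-tRNA synthetase genes mostly below it at positive values, erythroid genes mostly above it, and Elavl1 below it at 1.05 and -1.45.

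The spread of the differences over genes was narrower in the libraries labelled HuR cKO. The standard deviation of polysome minus monosome over genes was 1.15 in WT and 0.98 in HuR cKO. Taken for each polysome library against the mean of its monosome libraries, it was 1.2 and 1.19 in WT and 0.95, 1.18 and 1.01 in HuR cKO. The HuR cKO polysome library in column 0, called c0 here, was thus the one that differed least from monosome RNA. It had r = 0.894 with the mean of its monosome libraries, against 0.825 and 0.869 for the other 2, and it had the fewest genes above 0 (13340). Below, c0 without a pool named means this polysome library, and some list medians are also given without it. Where no value without c0 is given, a result may still rest on it. The genotype difference subtracts the WT value, so a list's loading in WT and its genotype difference are not independent. The part of the narrower HuR cKO spread in the list differences below was not tested.

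No member of the Elavl family other than Elavl1 stood apart. The neuronal members differed between genotypes by -0.06 for Elavl2 (SE 0.63), 0.11 for Elavl3 (SE 0.73) and -0.37 for Elavl4 (SE 0.52). Their values ran differently in single WT libraries: Elavl3 was at 40.7 and 55.3 FPKM in WT monosome RNA and at 10.5 and 40.4 FPKM in WT polysome RNA. The sign for Elavl2 was positive after rescaling (0.18), and for all 3 neuronal members the sign changed when single libraries were left out.

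Textbook HuR target mRNAs had a median slightly below that of all genes. Of 38 listed targets, 34 were tested, and their median was -0.08 relative to all genes, between -0.17 and -0.02 when each library was left out in turn. Under quantile normalization it was -0.20, and relative to genes of like coding length, as defined below, -0.24 with 11 of 34 above. None was called, and 2 had an unadjusted p under 0.05, both lower (2.9% of all genes), against none after rescaling. The first was Hif1a, the oxygen-sensing transcription factor. It was at 11.5 and 10.5 FPKM in WT monosome RNA, 33.9 and 37.9 in WT polysome RNA, 15.1, 9.68 and 12.6 in HuR cKO monosome RNA and 11.9, 28.5 and 18.6 in HuR cKO polysome RNA. The 2 pools were far apart in WT, and in HuR cKO they overlapped through library c0. Its genotype difference was -1.06 (SE 0.49). The second was Sirt1, a deacetylase gene, at -1.04 (SE 0.46). Myc, a transcription factor of growth control, was at -1.01 (SE 0.60) and Dusp1, a phosphatase that acts on MAP kinases, at -0.68 (SE 0.45).

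The number of ATTTA copies in the 3′ UTR moved little with the genotype difference. The median difference was -0.12 for 3281 genes with no copy, -0.14 for 1996 genes with 1, -0.22 for 1264 genes with 2, and -0.27 for 2862 genes with 4 or more. Genes with more copies also had longer coding sequences, with a median of 1215 bases at 0 copies and 1512 bases at 4 or more. Within the middle of 5 groups by coding length the medians were -0.16 without a copy (645 genes) and -0.23 with 4 or more (567 genes). At P0 the corresponding medians over all genes were -0.29 and -0.33.

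Ribosomal protein mRNAs are short and carry a pyrimidine-rich start (the terminal oligopyrimidine or TOP motif), through which their translation is known to follow mTOR activity. Some RefSeq starts of these genes have a run of pyrimidines near them. The 4 shown here (GRCm38.p6) were taken from those with CTTTT within 20 bases of the annotated start, in order of p. Left out were 2 whose CTTTT lies before the start, Rpl34 and Rps25. CTTTT is in capitals, and its first base lies at 9, 2, 3 and 2 from the annotated start in Rps12, Rpl12, Rpl27a and Rps6. Rps12 and Rps6 lie on the minus strand (chr10:23787183-23787212 and chr4:86857348-86857377), and Rpl12 and Rpl27a on the plus strand (chr2:32961702-32961731 and chr7:109519186-109519215).
Rps12: gccaccgccggcCTTTTcccctgccgccgc
Rpl12: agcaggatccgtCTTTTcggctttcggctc
Rpl27a: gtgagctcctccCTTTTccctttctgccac
Rps6: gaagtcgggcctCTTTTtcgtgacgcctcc
In the 41 bases around the start, CTTTT was found on the mRNA strand of 7 of 60 matched ribosomal protein genes (11.7%) and of 368 of 8416 matched genes tested (4.37%). On the opposite strand it was found at 1 of the 60 (1.67%) and at 281 of the 8416 (3.34%). Rps12, Rpl12, Rpl27a and Rps6 had genotype differences of 0.89 (SE 0.75), 0.74 (SE 0.63), 0.56 (SE 0.61) and 0.49 (SE 0.58), and Rpl34 and Rps25 of -0.67 (SE 0.59) and 0.43 (SE 0.64). Without WT polysome library 1, Rps12, Rps6 and Rps25 were at -0.011, -0.020 and -0.16. The 7 ribosomal protein genes with CTTTT in this window had a median genotype difference of 0.49 and those without it 0.53. A match to these letters does not decide which genes carry the TOP motif. These medians therefore do not compare genes with and without that motif.

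In both genotypes, ribosomal protein mRNAs were more abundant in the monosome pool. The median polysome minus monosome difference of the small subunit's genes was -2.10 in WT and -1.60 in the libraries labelled HuR cKO, with 32 and 29 of 33 called lower, against 15.9% and 19.1% of all genes. For the large subunit it was -1.97 and -1.47, with 39 and 35 of 49 called lower and 1 called higher in each genotype. Relative to all genes, the genotype difference had a median of 0.74 for the small subunit, with 33 of 33 above the median of all genes, and of 0.66 for the large subunit, with 48 of 49 above it. As a standard error between libraries, the spread was 0.69 for the small-subunit and 0.62 for the large-subunit median. Members of a list are not replicates, so the counts of members do not narrow that spread. None of these genes was called or had an unadjusted p under 0.05, although 1 large-subunit gene had one, with a higher difference, after rescaling.

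Rps29, a small-subunit protein gene, was at 7419 and 11704 FPKM in WT monosome RNA and at 983 and 399 FPKM in WT polysome RNA. In the libraries labelled HuR cKO it was at 10418, 6625 and 7425 FPKM in monosome RNA and at 1573, 1009 and 800 FPKM in polysome RNA. Its genotype difference was 1.01 (SE 0.67). Rpl36, a large-subunit protein gene, was at 1828 and 3418 FPKM in WT monosome RNA and at 379 and 544 FPKM in WT polysome RNA, and in the libraries labelled HuR cKO at 1993, 1601 and 1502 FPKM and at 1187, 487 and 536 FPKM. Its genotype difference was 1.14 (SE 0.63). In both genes the pools did not overlap in either genotype, and c0 was the highest HuR cKO polysome library. Rps26, Fau, Rps16, Rpl13a, Rplp0 and Rpl13, all cytosolic ribosomal protein genes, had differences between 0.80 and 0.90.

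The ribosomal protein difference was carried unevenly by the libraries. The level of the small-subunit list, as its median minus that of all genes on the log2(FPKM + 1) scale, was 8.83 and 9.55 in the WT monosome libraries and 7.04 and 5.94 in the WT polysome libraries. It was 9.06, 8.84 and 8.82 in the HuR cKO monosome libraries and 7.71, 6.89 and 6.84 in the HuR cKO polysome libraries. WT polysome library 1 was the lowest of all, and without it the genotype difference was 0.18 relative to all genes, while without WT polysome library 0 it was 1.26. Without c0 it was 0.51, and under quantile normalization 0.32. For the large subunit the corresponding values were 0.16, 1.10, 0.49 and 0.31. At P0 the medians relative to all genes were -0.03 and -0.07. Ribosomal protein genes of mitochondria had a median of 0.18 (75 genes), from -0.08 to 0.45 over left-out libraries.

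Aminoacyl-tRNA synthetase mRNAs lay on the other side. These enzymes charge tRNAs with amino acids, and 16 of their 20 genes were called higher in polysome than in monosome RNA in WT (23.8% of all genes) and 10 of 20 in the libraries labelled HuR cKO (18.4% of all genes), with 1 called lower in each. The median polysome minus monosome difference was 1.80 in WT and 0.76 in HuR cKO. Relative to all genes the genotype difference had a median of -0.63, with 19 of 20 genes below the median of all genes. The spread of this median between libraries was 0.39 as a standard error. At an unadjusted p under 0.05, 4 were lower (2.9% of all genes), against 1 after rescaling (0.741% of all genes). The range over left-out libraries was -0.82 to -0.36, the latter without c0, and the median at P0 was -0.12.

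Nars, the asparagine enzyme's gene, was at 17.9 and 15.6 FPKM in WT monosome RNA and at 84.8 and 60.8 FPKM in WT polysome RNA. HuR cKO libraries gave 35.2, 20.8 and 23.2 FPKM in monosome RNA and 25.1, 65.9 and 40.8 FPKM in polysome RNA. The HuR cKO pools overlapped only through c0, and the genotype difference was -1.39 (SE 0.54). Aars, the alanine enzyme's gene, had a difference of -1.35 (SE 0.56), Eprs, whose product serves glutamate and proline, -1.10 (SE 0.51), and Tars, the threonine enzyme's gene, -1.02 (SE 0.47). Translation initiation factors had a median of -0.13 relative to all genes (43 tested, none with an unadjusted p under 0.05), from -0.17 to 0.07 over left-out libraries and -0.01 without c0. Among them Eif3b and Eif3c, subunits of the eIF3 complex, were at -1.18 (SE 0.56) and -0.97 (SE 0.51), and Eif4g1, the scaffold of the cap-binding complex, at -0.70 (SE 0.46).

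**Figure D3:**
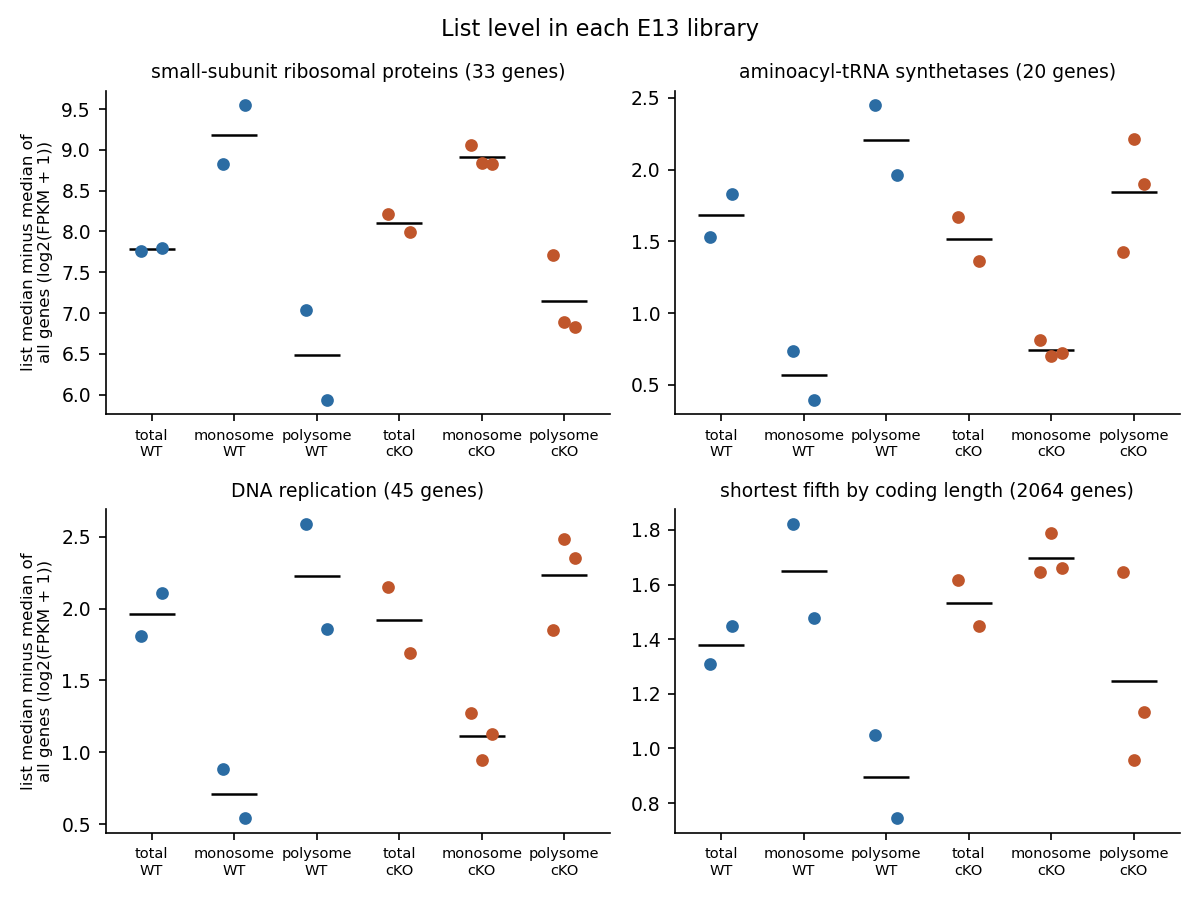
Level of 4 gene lists in each E13 library, as the median over the list minus the median over all genes (log2(FPKM + 1) scale), by RNA pool and labelled genotype, with 1 point per library and a bar at the group mean. In the small-subunit panel the WT polysome points are at 7.04 and 5.94 and the HuR cKO polysome points at 7.71, 6.89 and 6.84.

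Genes of DNA replication, which proliferating progenitors express at E13, were also below the median of all genes. Of 45 genes, 29 were called higher in polysome than in monosome RNA in WT (23.8% of all genes) and 24 in the libraries labelled HuR cKO (18.4% of all genes). The genotype difference had a median of -0.39 relative to all genes, from -0.61 to -0.14 over left-out libraries and -0.28 without c0. At an unadjusted p under 0.05, 7 of 45 were lower (2.9% of all genes), against 3 after rescaling (0.741% of all genes). Mcm3, a subunit of the replicative helicase, was at 14.9 and 12.9 FPKM in WT monosome RNA and at 82.5 and 80.9 FPKM in WT polysome RNA. HuR cKO libraries gave 28.2, 19.5 and 29.9 FPKM in monosome RNA and 26.1, 70.6 and 60.3 FPKM in polysome RNA. Here too, only c0 brought the HuR cKO pools into overlap. The difference was -1.58 (SE 0.54).

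Mcm4, another helicase subunit, did not overlap between the pools in either genotype. It was at 9.60 and 7.42 FPKM in WT monosome RNA, at 37.7 and 36.8 in WT polysome RNA, at 18.4, 11.4 and 15.1 in HuR cKO monosome RNA and at 20.0, 25.3 and 23.9 in HuR cKO polysome RNA. Its genotype difference was -1.41 (SE 0.42). Lig1, the replicative DNA ligase, was at -1.38 (SE 0.47). Among 37 cell cycle genes the median was -0.20 relative to all genes, from -0.36 to -0.06 over left-out libraries. At an unadjusted p under 0.05, 4 were lower (2.9% of all genes), against 2 after rescaling (0.741% of all genes). The 4 were the mitotic genes Bub1b (-1.35, SE 0.48), Kif20a (-1.36, SE 0.51), Prc1 (-1.28, SE 0.51) and Tpx2 (-1.08, SE 0.44).

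Lists of cell identity in the developing cortex had medians on both sides of all genes. Radial glia, the progenitors that line the ventricle, had a median of -0.36 (24 genes), from -0.48 to -0.23 over left-out libraries. At an unadjusted p under 0.05, 1 of the 24 was lower (2.9% of all genes), and 1 after rescaling (0.741% of all genes). Dach1, a transcriptional regulator expressed in these progenitors, was at -1.2 (SE 0.44), while Sox9, Hes1 and the intermediate filament gene Nes were at -0.92 (SE 0.49), -0.95 (SE 0.54) and -0.79 (SE 0.47). Deep-layer neuron genes had a median of -0.53 (14 genes), which was -0.12 without WT polysome library 1. At an unadjusted p under 0.05, 1 of the 14 was lower (2.9% of all genes), and 1 after rescaling (0.741% of all genes). Foxp2 is among the 14 genes of the list and reached a mean of 1 FPKM only through the WT monosome libraries, where it is highest. Intermediate progenitor genes stood at 0.10 (14 genes, from -0.25 to 0.44 over left-out libraries) and upper-layer neuron genes at 0.08 (13 genes, from -0.53 to 0.49).

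Bcl11b, which encodes the transcription factor CTIP2 of deep-layer projection neurons, was at 3.0 and 8.12 FPKM in WT monosome RNA and at 8.92 and 25.2 FPKM in WT polysome RNA. In the libraries labelled HuR cKO it was at 3.87, 3.82 and 4.96 FPKM in monosome RNA and at 2.68, 4.1 and 4.88 FPKM in polysome RNA. WT library 1 was the higher of its pair in both pools, and the HuR cKO pools overlapped. The genotype difference was -1.53 (SE 0.59), between -2.23 and -0.83 over left-out libraries. Nfib, Tbr1 and Tle4, further transcription regulators of this list, were at -1.13 (SE 0.65), -0.88 (SE 0.54) and -0.69 (SE 0.44).

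Genes of neurite cytoskeleton and axon growth had a median of -0.38 relative to all genes (34 genes), which was -0.13 without c0. Ank3 is among them and reached a mean of 1 FPKM only through the WT polysome libraries, where it is highest. At an unadjusted p under 0.05, 2 were lower (2.9% of all genes). These 2 were Marcks, an actin-binding membrane protein gene (-1.35, SE 0.49), and Dpysl2, which encodes the microtubule-binding protein CRMP2 (-1.22, SE 0.45). Synapse and vesicle genes had a median of -0.15 (32 genes), from -0.53 to 0.19 over left-out libraries. Of these, Dlg2, Shank1, Shank2 and Nlgn1 reached a mean of 1 FPKM only through the WT polysome libraries, where they are highest. The median was not taken without them. At an unadjusted p under 0.05, 4 of the 32 were lower (2.9% of all genes), and 4 of 28 without those genes. After rescaling none of the 4 had an unadjusted p under 0.05. Among them were Snap25, a SNARE protein gene of vesicle fusion (-1.29, SE 0.51), and Napb (-1.24, SE 0.49) and Nsf (-1.38, SE 0.58), whose products take SNARE complexes apart.

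Some housekeeping groups with strong polysome loading in WT also had medians below that of all genes, and the WT loading itself enters the genotype difference. Chaperone genes had a median of -0.38 relative to all genes (26 genes), which was -0.07 without c0. At an unadjusted p under 0.05, 2 were lower (2.9% of all genes), against 1 after rescaling (0.741% of all genes). Hsph1, a large heat-shock protein that acts as an exchange factor for HSP70, was at 15.7 and 16.1 FPKM in WT monosome RNA, at 38.0 and 53.5 in WT polysome RNA, at 25.2, 19.8 and 28.5 in HuR cKO monosome RNA and at 19.7, 24.5 and 28.4 in HuR cKO polysome RNA. The WT pools were apart and the HuR cKO pools overlapped fully, with a genotype difference of -1.47 (SE 0.43). The other was Hspa5, the chaperone of the endoplasmic reticulum, at -1.2 (SE 0.54).

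Glycolysis genes had a median of -0.36 (18 genes), between -0.75 and -0.00 over left-out libraries and -0.18 without c0. Only Pfkm, a phosphofructokinase gene, had an unadjusted p under 0.05, with a lower difference (2.9% of all genes), though not after rescaling. It was at -1.21 (SE 0.57). Cholesterol synthesis genes had a median of -0.30 (21 genes), from -0.43 to 0.01 over left-out libraries and -0.14 without c0. At an unadjusted p under 0.05, 3 were lower (2.9% of all genes), against none after rescaling. Among the 3 were Cyp51 (-1.04, SE 0.44) and Hmgcs1 (-1.05, SE 0.47). Proteasome genes, of which 29 of 33 were called higher in polysome RNA in each genotype (23.8% of all genes in WT and 18.4% in HuR cKO), had a median of -0.17, from -0.45 to 0.12 over left-out libraries. At an unadjusted p under 0.05, 2 were lower (2.9% of all genes), against 1 after rescaling (0.741% of all genes). These 2, Psmd1 and Psmd2, subunits of the regulatory particle, were at -1.18 (SE 0.44) and -1.28 (SE 0.53). RNA-binding proteins other than the Elavl family had a median of -0.31 (45 genes), from -0.48 to -0.08 over left-out libraries and -0.15 without c0. Lin28b is among them and reached a mean of 1 FPKM only through the HuR cKO monosome libraries, where it is highest. Of the 45, 3 had an unadjusted p under 0.05, all lower (2.9% of all genes), against none after rescaling. They were Hnrnpu (-1.2, SE 0.48), Tardbp (-1.28, SE 0.56) and Syncrip (-0.98, SE 0.45), all regulators of RNA processing.

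**Figure D4:**
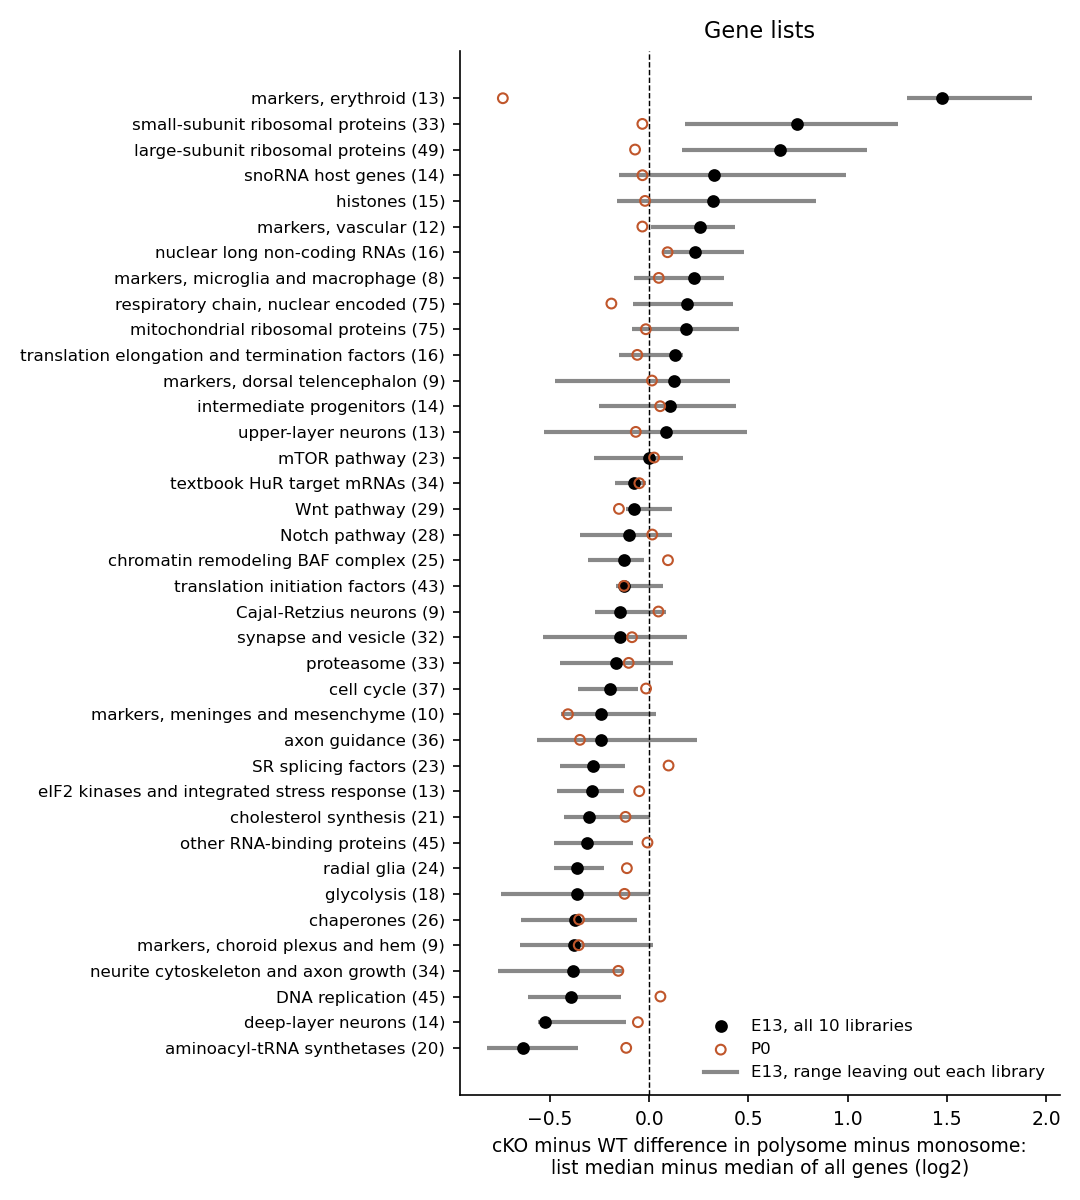
Median genotype difference in polysome minus monosome RNA for each gene list with at least 8 genes tested, minus the median of all genes (log2), with the number of genes in brackets. Filled points are E13, grey lines the range over E13 values with each library left out in turn, and open points P0. Erythroid markers and ribosomal proteins are the highest at E13 and aminoacyl-tRNA synthetases the lowest, at 1.48, 0.74, 0.66 and -0.63. The erythroid value includes Klf1 and Gata1, which passed the filter on low values only through the HuR cKO polysome libraries.

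Red blood cell genes gave the largest list median. Of 13 erythroid markers tested, 7 had an unadjusted p under 0.05 with a higher difference in the libraries labelled HuR cKO (0.188% of all genes). With a lower one there was 1 (2.9% of all genes). The median was 1.48 relative to all genes, from 1.30 to 1.93 over left-out libraries, and at P0, where only 6 of them were tested, it was -0.74. Klf1 and Gata1 passed the filter on low values only through the HuR cKO polysome libraries, where they are highest, and without them 6 of 11 were higher and 1 lower. The list median includes both genes and was not taken without them. After rescaling 7 of 13 were higher (0.861% of all genes) and none lower. Hbb-y, an embryonic globin gene, stood at 3824 and 3824 FPKM in WT monosome RNA and at 6562 and 2083 FPKM in WT polysome RNA. HuR cKO libraries gave 2952, 2338 and 2123 FPKM in monosome RNA and 18876, 10799 and 8242 FPKM in polysome RNA. The WT pools overlapped, whereas each HuR cKO polysome library was above each HuR cKO monosome library. Its genotype difference was 2.33 (SE 0.72).

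Hba-x, the embryonic alpha-like globin gene, was at 908 and 464 FPKM in WT monosome RNA, at 1305 and 229 in WT polysome RNA, at 2050, 1721 and 874 in HuR cKO monosome RNA and at 12126, 6112 and 3137 in HuR cKO polysome RNA. Its difference was 2.32 (SE 0.96). Hbb-b2 had the largest value of the list, 3.18 (SE 0.73), and was listed at 0.00106, 0.617 and 0 FPKM in the HuR cKO monosome libraries and at 39.4, 6.36 and 9.02 FPKM in the HuR cKO polysome libraries. In WT it was at 9.55 and 8.17 FPKM and at 11.7 and 12.9 FPKM. Beyond the 4 named by rule, Hba-a2, Hba-x, Hbb-b1 and Klf1 were chosen after their values were seen. Hba-a1, Hba-a2, Hbb-b1 and Klf1, the last a transcription factor of red cell precursors, were the other 4 with a higher difference, and Alas2, the erythroid enzyme of heme synthesis, was the lower one (-1.46, SE 0.59). Because some globin genes are near-identical in sequence, reads may be split among those.

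The summed level of the erythroid markers was higher in polysome than in monosome RNA in the libraries labelled HuR cKO, whereas the WT ranges overlapped. It was 6307 to 7424 FPKM in WT monosome, 5352 to 9286 in WT polysome and 7692 to 8052 in WT total RNA. In the libraries labelled HuR cKO it was 3796 to 6725 in monosome, 13604 to 39450 in polysome and 6547 to 16215 in total RNA, and no marker was at 0 in a whole group. The part of blood cells in the other differences was not tested. Of the other markers, those of choroid plexus and hem summed to 540 to 1037 FPKM in WT polysome RNA and to 142 to 275 in WT monosome RNA. Within the libraries labelled HuR cKO the polysome range, 166 to 394, overlapped the monosome range, 170 to 375. Their median difference was -0.38 relative to all genes (9 genes), from -0.65 to 0.02 over left-out libraries, with Ttr, the transthyretin gene of choroid plexus, at -1.49 (SE 0.85). Markers of the dorsal telencephalon, the labelled tissue, summed to 505 to 1071 FPKM in the 10 libraries and had a median of 0.13 (9 genes), from -0.48 to 0.41 over left-out libraries. Vascular, microglial and meningeal markers had medians of 0.26, 0.22 and -0.24, which over left-out libraries ran from 0.01 to 0.43, from -0.07 to 0.38 and from -0.45 to 0.03. Among the microglial markers, Cx3cr1 reached a mean of 1 FPKM only through the WT polysome libraries, where it is highest. Of 13 ventral telencephalon markers only 5 were tested, and Lhx8 was at 0 in all polysome libraries of both genotypes, with Gbx2 also at 0 in WT and Nkx2-1 in HuR cKO. Of 12 vascular markers, 8 were above the median of all genes and 4 below, and of 10 meningeal markers 3 were above and 7 below. In each of these 2 lists 1 marker was lower at an unadjusted p under 0.05 (2.9% of all genes). After rescaling it was 1 vascular and 0 meningeal markers (0.741% of all genes). The lowest vascular marker was Rgs5, a pericyte gene, at -1.67 (SE 0.54). The lowest meningeal marker was Col3a1, a collagen gene of the meninges, at -1.11 (SE 0.51).

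Coding length ordered the genotype difference over all genes at E13. Lengths were available for 10291 of the tested genes (88.0%), which were split by length into 5 groups of about equal size. From the shortest to the longest group, the median genotype difference was 0.03, -0.02, -0.18, -0.31 and -0.55. Behind it, the median polysome minus monosome difference in WT was -0.42, 0.28, 0.44, 0.50 and 0.50, and in the libraries labelled HuR cKO -0.37, 0.29, 0.27, 0.20 and -0.05. The shortest group has coding sequences up to 738 bases and the longest from 2421 bases up. After rescaling, the genotype difference was 0.25 in the shortest and -0.34 in the longest group, so which end lies nearer 0 depends on scaling. At P0 the same medians were -0.37, -0.32, -0.29, -0.26 and -0.26, which ran the other way.

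The gap between the longest and shortest groups was -0.57 at E13, with a spread between libraries of 0.54. It was between -0.92 and -0.22 when each library was left out, -0.31 without c0, -0.59 after rescaling and -0.46 under quantile normalization, and at P0 it was 0.11. No test was made of this gap, since genes are not replicates. Against total RNA it was -0.38 in the polysome pool and 0.23 in the monosome pool. Length in the 3′ UTR ordered the difference less, from -0.14 in the shortest group to -0.27 in the longest, and 5′ UTR length did not, at -0.20 and -0.21. By GC content of the coding sequence the medians ran from -0.29 in the lowest group to -0.06 in the highest.

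**Figure D5:**
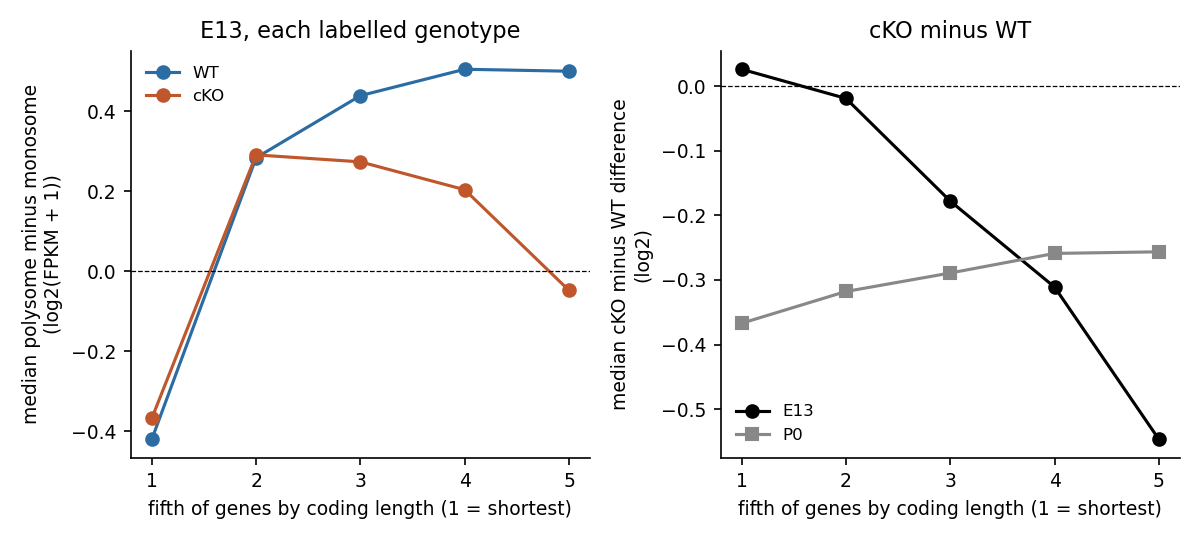
Medians in 5 groups of 10291 genes ordered by coding length, on the log2(FPKM + 1) scale. The left panel gives polysome minus monosome RNA at E13 in WT and HuR cKO, and the right panel the genotype difference at E13, from 0.03 in the shortest to -0.55 in the longest group, and at P0, from -0.37 to -0.26.

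Gene lists were set against genes of like length in the same way. Relative to the median of each gene's own length group, the small-subunit ribosomal protein genes had a median of 0.53, with 32 of 32 above it, and the large-subunit genes 0.48, with 46 of 49 above it. Aminoacyl-tRNA synthetase genes had a median of -0.49 with 2 of 20 above, DNA replication genes -0.31 with 10 of 45 above, and chaperone genes -0.25 with 5 of 25 above. Mitochondrial ribosomal protein genes and nuclear-encoded respiratory chain genes, which are short as well, stood at -0.00 and -0.02. The shortest group without its 69 ribosomal protein genes still had a median genotype difference of 0.01, not taken relative to other genes. Relative to all genes with lengths it was 0.20, against 0.22 for the whole shortest group.

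Outside the lists, the genes with the smallest p were looked up after their values were seen, since no gene met the criteria for naming by size. Among those lower in the libraries labelled HuR cKO were Copb2 and Copb1, 2 subunits of the COPI vesicle coat that works between Golgi and endoplasmic reticulum. Copb2 was at 7.30 and 7.89 FPKM in WT monosome RNA, at 64.0 and 60.6 in WT polysome RNA, at 14.4, 8.44 and 13.4 in HuR cKO monosome RNA and at 16.1, 38.4 and 28 in HuR cKO polysome RNA. Neither genotype's pools overlapped, and the 2 WT libraries of each pool were close to each other. Such values are part of what makes a p small, and Copb2 was picked by its p, so they are no separate support. The difference was -1.81 (SE 0.50), from -2.08 to -1.48 over left-out libraries, and at P0 it was -0.36. Copb1 was at -1.59 (SE 0.46) and at P0 at -0.57. Pcp4l1 (-2.24, SE 0.56), the nucleolar genes Nolc1 (-1.57, SE 0.49) and Ftsj3 (-1.49, SE 0.45), the condensin subunit gene Ncaph (-1.52, SE 0.48), the phosphatase subunit gene Ppp6r3 (-1.57, SE 0.49) and Cep97 (-1.47, SE 0.46), a centriole protein gene, were also among them.

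Among those higher were Tspo, a mitochondrial outer membrane protein gene (1.26, SE 0.45), Tm2d3 (1.41, SE 0.51), Pir (1.35, SE 0.50), Cyb561d2 (1.43, SE 0.55) and Cd34, a surface protein gene of vascular and blood-forming cells (1.12, SE 0.44). Tm2d3 was at 27.1 and 22.7 FPKM in WT monosome RNA, at 31.6 and 20.8 in WT polysome RNA, at 21.4, 13.0 and 18.5 in HuR cKO monosome RNA and at 77.6, 36.5 and 41.6 in HuR cKO polysome RNA. The WT pools overlapped and the HuR cKO pools did not, with c0 the highest. These genes too were picked by p, so their spread is no separate support, and none had an adjusted p under 0.05.

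The other comparisons called almost no gene. At P0, limma called 0 of 11959 genes (0.0%), with 1358 at an unadjusted p under 0.05, 1352 of them lower (11.3%) and 6 higher. After rescaling these were 200 genes, 108 lower and 92 higher, so the P0 split too depends on scaling. The difference between E13 and P0 called 0 of 12220 genes (0.0%), with 355 at an unadjusted p under 0.05. Over 10956 genes tested at both ages, the genotype differences had r = -0.066. Polysome against total RNA at E13 called 1 of 11559 genes (0.00865%), with 43 at an unadjusted p under 0.05, and monosome against total RNA called 0 of 11630 (0.0%), with 92. The 1 gene was Snora28, a small nucleolar RNA that is not polyadenylated. It was listed at 31.5 and 39.7 FPKM in WT total RNA, at 0 in both HuR cKO total libraries and at 0 in all 5 polysome libraries, so its call rests on total RNA alone.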

How the data were processed

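Neocortical polyadenylated RNA was sequenced from total lysate and from pooled gradient fractions. The authors deposited FPKM values per gene and library, 1 table for each genotype. Per the submitters' processing notes, TopHat2 2.0.6, Bowtie2 2.0.5.0 and Cuffdiff were used, with the mm10 and GRCm38 builds. No source used here names their annotation or how Cuffdiff scaled the libraries. The tables were scaled separately, so tests used only differences within a table, and levels from both tables stand side by side as descriptions. HuR cKO columns are numbered from 0 and their samples from 1, so these columns were assigned to groups only and are called c0, c1 and c2.

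Names made of digits alone were dropped, which left 23258 genes in both tables. limma 3.58.1 in R 4.3.3 (lmFit, eBayes with trend) was run on log2(FPKM + 1) for genes with a mean of at least 1 FPKM over the libraries fitted, with Benjamini-Hochberg adjustment over all genes tested. The log2 pseudocount shrinks changes of low genes. The E13 fit had 6 residual degrees of freedom. No 2 libraries held identical values. Counts and thus total depth are not known. From the steps between low values, 1 fragment was worth 0.770 (WT polysome library 1) to 1.64 (HuR cKO monosome library c1) of the median library's value. Those libraries were thus the deepest and shallowest of the 10 relative to their FPKM. HuR cKO polysome library c0, at 1.62, was close to the shallowest and was the shallowest polysome library. The part of depth in its likeness to monosome RNA was not tested.

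The rule for naming called genes took up to 12 in each direction with a mean of at least 5 FPKM in a group, and up to 4 genes of each list by p. Gene lists and members were chosen with earlier results of these data known. Of 1088 list entries, 1047 matched the tables by symbol and 15 by synonym. UTR and coding lengths came from GENCODE M21, start sequences from RefSeq. Alternatives were other pseudocounts, filters, scalings, fits, a replicate block and each library left out. The script was tested on simulated data.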

Additional observations from a re-analysis of the deposited data

How the results depend on the processing

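The count of 0 called genes at E13 became 1 (Elavl1) in the fit of all 12 groups and was between 0 and 2 over left-out libraries. Elavl1 was called without WT monosome library 0; without HuR cKO monosome library c0 the 2 were the small nucleolar RNAs Snora28 and Snora43. It stayed at 0 under both other pseudocounts, both filters, both rescalings, library weights, no trend, and without genes listed at 0. Elavl1 was at -2.50 in the fit of all 12 groups, now called, and between -3.29 and -1.70 over left-out libraries. The P0 count was 3 with a pseudocount of 5 and 0 to 1 over left-out libraries. The count for E13 minus P0 was 0 to 1 over left-out libraries. For polysome against total RNA the count of 1 became 0 with a pseudocount of 0.1, 2 with a pseudocount of 5, 2 without a filter, 0 in the fit of all 12 groups and 1 to 4 over left-out libraries. For monosome against total RNA it was 0 to 2 over left-out libraries. The cause of these changes was not tested.

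WT monosome and polysome libraries of equal number deviated together with r = 0.396 over genes, but there are only 2 pairs and the labels do not say that equal numbers mark shared samples. The sex-linked values given under other observations also go together by number in these 2 pools, though not with total RNA. With a WT replicate block, 0 genes were called, 487 had an unadjusted p under 0.05, and Elavl1 was at -2.50 with an adjusted p of 0.343. HuR cKO columns could not be tied to sample numbers and had no block. Their sex-linked values also went together by column number, with c1 apart from c0 and c2 in both pools. The fits took no account of a possible pairing there.

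Elavl2 changed sign after rescaling (0.18) and with library weights (0.14), and ranged from -0.92 to 0.80 over left-out libraries. Elavl3 ranged from -0.81 to 1.03 and Elavl4 from -0.96 to 0.22. Over left-out libraries Rps12 ranged from -0.011 to 1.80, Rps6 from -0.020 to 0.996 and Rps25 from -0.16 to 1.01. No other gene that the report gives an E13 genotype difference for changed sign under the settings tried. Across alternatives, 823 list medians stayed within the list's own spread between libraries and 37 moved by more. A list with a wide spread can move far and still count as within it, so these counts do not measure stability. The small-subunit ribosomal protein median, with a spread of 0.69, counted as within it when it fell from 0.74 to 0.18 without WT polysome library 1.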

Other observations

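Sex-linked transcripts differed between the E13 libraries in a way that the labels do not record. Xist, expressed from the inactive X chromosome, was at 2.69 and 3.42 FPKM in WT monosome and polysome library 0, and the Y-linked gene Eif2s3y was at 0 and 0.0493 FPKM there. WT libraries 1 held both, with Xist at 1.23 and 1.46 FPKM and Eif2s3y at 6.55 and 6.30 FPKM. In total RNA it was WT library 1 that had Xist at 3.39 and Eif2s3y at 0.0371 FPKM, while library 0 held both, at 1.73 and 3.39 FPKM. In the columns labelled HuR cKO, c1 had Xist at 2.86 and 1.89 FPKM in monosome and polysome RNA with Eif2s3y at 0.196 and 0.425 FPKM, and c0 and c2 had Xist at or near 0 and Eif2s3y between 6.46 and 12.2 FPKM. Libraries with Eif2s3y above 6 FPKM were thus 2 of 4 in WT and 4 of 6 in HuR cKO among the 10, and the part of sex in the genotype difference was not tested.

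Non-coding host transcripts of small nucleolar RNAs were the list with the deepest monosome bias: all 14 tested were called lower in polysome than in monosome RNA in each labelled genotype (15.9% of all genes in WT and 19.1% in HuR cKO), with medians of -2.59 in WT and -2.45 in HuR cKO. Their genotype difference had a median of 0.32 relative to all genes, from -0.15 to 0.99 over left-out libraries, and none had an unadjusted p under 0.05. Histone genes had a median of 0.32 relative to all genes (15 genes), from -0.16 to 0.84.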
